A study of Mus musculus with 8 samples.

Results

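The CCN family comprises small secreted, cysteine-rich proteins of the extracellular matrix, and its 5 members followed here were Ctgf (CCN2), Cyr61 (CCN1), Nov (CCN3), Wisp1 (CCN4) and Wisp2 (CCN5). They were taken by symbol from the gene tables, each as 1 entry, and make up 5 of 34399 gene symbols. The cells were cardiac fibroblasts, sorted by GFP from the ventricles of mice whose hearts had been under pressure overload for 4 weeks (transverse aortic constriction, TAC), and the 8 RNA-seq libraries formed 4 groups of 2. The labels do not say whether the 2 libraries of a group came from separate mice, so p-values measure only the spread between libraries, which may be technical.

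Smad2/3 double knockout (DKO) fibroblasts (libraries HK15 and HK16) carried Smad2 flox/flox, Smad3 flox/flox, the tamoxifen-dependent Cre MerCreMer in the Postn locus and a Cre-dependent eGFP reporter in the Rosa locus. Postn-Cre control fibroblasts (HK3 and HK4) carried the Cre and the reporter without the floxed alleles. Tgfbr1/2 DKO fibroblasts (HK2 and HK4 of another sequencing run) carried floxed alleles of both TGF-beta receptor genes, MerCreMer in the Tcf21 locus and the same reporter, and Tcf21-Cre control fibroblasts (HK6 and HK7) the Cre and the reporter alone. To switch Cre on, all mice were injected with 100 mg/kg tamoxifen on 2 days and then fed tamoxifen chow (40 mg/kg), and they were 8 to 10 weeks old at surgery. Postn marks activated fibroblasts and Tcf21 resident ones, so a cell enters a library only where its driver gene was active. Each comparison had its own run and its own Cre driver, and these cannot be told apart from the targeted genes when the comparisons are set against each other.

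CCN proteins are built from a shared set of modules that bind growth factors, integrins and heparan sulfate proteoglycans, and they are known as matricellular proteins because they instruct cells rather than bear load. Ctgf and Cyr61 are immediate, strongly inducible genes, used widely as readouts of the mechanosensitive coactivators YAP and TAZ, and Ctgf is also a classical TGF-beta target in fibrosis. Nov often opposes Ctgf in cell culture, Wisp1 and Wisp2 were named for their induction by Wnt1, and Wisp2 lacks the C-terminal module that the other members share.

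The libraries held 21477646 to 32594474 counts each. Levels are given as CPM, the count scaled to a library total of 1000000, and a floor of 3 counts was worth 0.092 to 0.14 CPM. The targeted transcripts did not differ past the threshold in edgeR's quasi-likelihood test (Benjamini-Hochberg adjusted p below 0.05). Smad2 was at 84.5 and 78.2 CPM in Smad2/3 DKO libraries and 95.4 and 82.3 CPM in Postn-Cre control libraries. The Smad3 values were 70.5 and 109 CPM in Smad2/3 DKO and 114 and 92.7 CPM in control. A count over the whole gene also takes in reads from exons that Cre leaves in place, and which exons were floxed is not stated in the sources used here. Tgfbr1 was at 181 and 193 CPM in Tgfbr1/2 DKO libraries and 229 and 238 CPM in Tcf21-Cre control libraries. The Tgfbr2 values were 471 and 406 CPM in Tgfbr1/2 DKO and 370 and 406 CPM in control. Summed fibroblast markers (9 genes) reached 15773 to 41550 CPM in every library. In bulk libraries, fewer cells of a type and less RNA per cell cannot be told apart.

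The promoter of Cyr61 is shown because the Cyr61 values are set beside YAP/TAZ targets and immediate early genes further on. The 250 bases before the start of the RefSeq gene (Ccn1, GRCm38.p6, chr3:145649986-145650235, minus strand) read as follows, 5′ to 3′, with matches to a TEAD motif, a CRE core and a TATA box in capitals.
Cyr61: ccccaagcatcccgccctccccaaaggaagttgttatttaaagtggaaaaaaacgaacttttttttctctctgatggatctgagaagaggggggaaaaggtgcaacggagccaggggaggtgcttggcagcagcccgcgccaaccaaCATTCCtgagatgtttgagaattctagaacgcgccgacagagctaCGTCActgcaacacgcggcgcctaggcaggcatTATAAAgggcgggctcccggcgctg
The TEAD motif (GGAATG, the site of the YAP/TAZ partner TEAD) matched on the opposite strand at position -103 counted from the start, and 12.6% of 32851 RefSeq promoters of the same length hold it on either strand. The CRE core (TGACG, part of the full CRE TGACGTCA) matched on the opposite strand at -58, and 17.8% of promoters hold it. The TATA box (TATAAA, promoter strand only) began at -25, and 7.59% of promoters hold it. The Smad box (GTCT, held by 82.9% of promoters), the AP-1 motif (TGANTCA, 6.75%), the full CRE (1.55%) and the CArG box of serum response factor (1.47%) had no match in this window on either strand. These matches describe letters only.

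The family signal was carried by Ctgf and Cyr61 in every library. Per kilobase of exon, which allows genes of unequal length to be compared, Ctgf and Cyr61 together made up between 92% (a Tcf21-Cre control library) and 96.9% (a Smad2/3 DKO library) of the summed level of the 5 members. Ctgf averaged 569 CPM per kb in Smad2/3 DKO, 509 in Postn-Cre control, 415 in Tgfbr1/2 DKO and 385 in Tcf21-Cre control libraries, and ranked between 37 and 91 among 32763 symbols with a known exon length. Cyr61 averaged 220 CPM per kb in Smad2/3 DKO, 109 in Postn-Cre control, 368 in Tgfbr1/2 DKO and 249 in Tcf21-Cre control libraries. Nov, Wisp1 and Wisp2 were far lower, at group means between 4.11 CPM per kb (Nov in Smad2/3 DKO) and 34.3 CPM per kb (Wisp2 in Tcf21-Cre control). The remaining gene of the family, Wisp3 (CCN6), had at most 1.09 CPM in any library and was at 0 counts in 1 Smad2/3 DKO library.

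**Figure D1:**
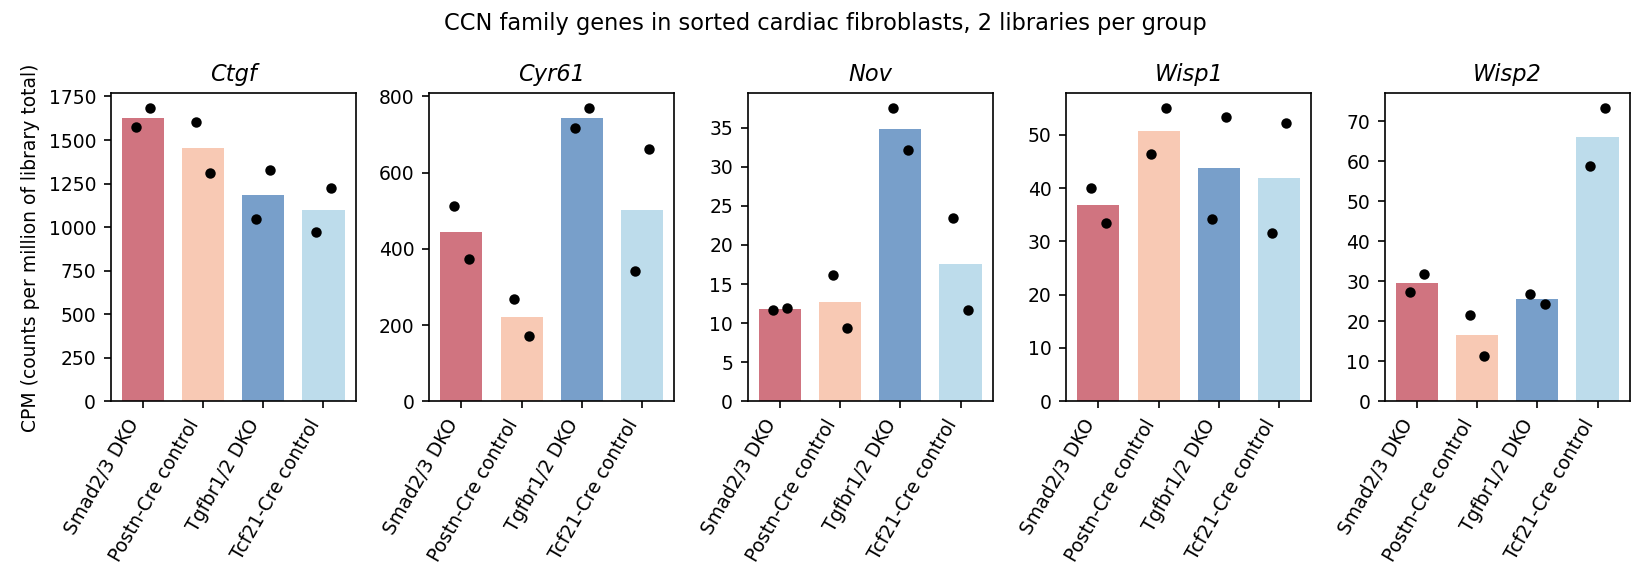
CPM of the 5 CCN genes in the 4 groups of sorted cardiac fibroblasts (linear axes that start at 0 and differ between panels); bars are group means and dots the 2 libraries. Ctgf lies between 974 and 1683 CPM everywhere, Cyr61 stands above its control range in both knockouts, and Wisp2 is highest in the 2 Tcf21-Cre control libraries.

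The summed CPM of the 5 members was 2166 and 2134 in Smad2/3 DKO libraries and 1958 and 1555 in Postn-Cre control libraries. It was 1864 and 2206 CPM in Tgfbr1/2 DKO libraries and 1431 and 2025 CPM in Tcf21-Cre control libraries, where the ranges overlapped. The ratio of Ctgf to Cyr61 was not tested and is given as values. Ctgf per kb was 2.16 and 3.18 times Cyr61 per kb in Smad2/3 DKO libraries, against 4.2 and 5.38 times in Postn-Cre control libraries. It was 1.03 and 1.22 times Cyr61 in Tgfbr1/2 DKO libraries, against 2.01 and 1.31 times in Tcf21-Cre control libraries. In both pairs the knockout libraries had the lower ratio without overlap, at the nearest 1.22 against 1.31 in the Tgfbr1/2 pair. Among single genes, 44.4% in the Smad2/3 pair and 51.2% in the Tgfbr1/2 pair had CPM ranges that did not overlap, in either direction. Wisp2 held 1.85% and 1.45% of the summed level per kb in Tgfbr1/2 DKO libraries, against 5.51% and 4.72% in Tcf21-Cre control libraries.

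**Figure D2:**
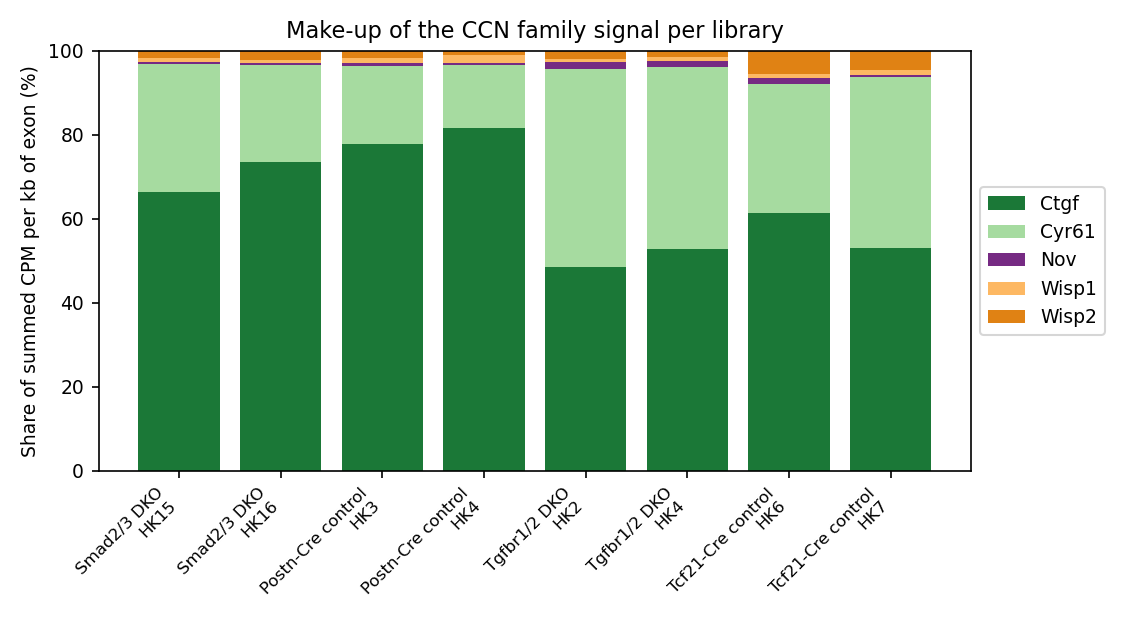
Share of each member in the summed CPM per kb of exon of the 5 CCN genes (y axis, percent), 1 stacked bar per library. Ctgf and Cyr61 fill at least 92% of each bar, and the Cyr61 share is 23.1% and 30.6% in Smad2/3 DKO libraries against 15.1% and 18.5% in Postn-Cre control libraries.

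Ctgf, whose product promotes matrix production by fibroblasts, showed no difference that passed the test after either knockout. The gene lies at chr10:24595442-24598683 on the plus strand (GRCm38, ENSMUSG00000019997). It had 1574 and 1683 CPM in Smad2/3 DKO libraries, against 1604 and 1308 CPM in Postn-Cre control libraries. It had 1047 and 1327 CPM in Tgfbr1/2 DKO libraries, against 974 and 1226 CPM in Tcf21-Cre control libraries. The ranges overlapped in both pairs. The log2 fold change in Smad2/3 DKO was 0.10 ± 0.15 (SE, 95% interval -0.23 to 0.43, edgeR adjusted p = 0.846). In Tgfbr1/2 DKO it was 0.19 ± 0.25 (interval -0.36 to 0.75, edgeR adjusted p = 0.723). The difference between these effects was -0.10 ± 0.32 (interval -0.81 to 0.61, edgeR adjusted p = 0.921). A Ctgf level lower by more than 0.36 on the log2 scale thus lay outside both knockout intervals. The authors' deposited table gives log2 fold changes of 0.17 in Smad2/3 DKO and 0.11 in Tgfbr1/2 DKO.

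Ctgf overlaps an annotated antisense transcript, Gm15270, and no strand-marking step is described for the libraries, so reads of the overlap cannot be told apart by strand. Gm15270 was counted at 2.7 and 0.931 CPM in Smad2/3 DKO, 1.54 and 1.65 CPM in Postn-Cre control, 37.4 and 48 CPM in Tgfbr1/2 DKO and 32.7 and 38.7 CPM in Tcf21-Cre control libraries. These levels are small beside those of Ctgf. The other 4 members overlap no annotated gene.

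Cyr61, which encodes an integrin-binding protein that can drive fibroblasts into senescence, had higher values in both knockouts than in their controls, but neither difference passed the main test. The gene lies at chr3:145646976-145649981 on the minus strand (ENSMUSG00000028195). It had 513 and 374 CPM in Smad2/3 DKO libraries, against 269 and 172 CPM in Postn-Cre control libraries. The 2 ranges did not overlap. The log2 fold change was 0.95 ± 0.23 (SE, interval 0.45 to 1.44), with an unadjusted p of 0.00152 and an adjusted p of 0.0786 in edgeR. DESeq2 gave an adjusted p of 0.00264 for the same 4 libraries (log2 fold change 0.94). Without Postn-Cre control HK3 the edgeR value was 1.33 (adjusted p = 0.00473) and without Smad2/3 DKO HK16 it was 1.15 (adjusted p = 0.0277), whereas without HK15 it was 0.71 (adjusted p = 0.34) and without Postn-Cre control HK4 it was 0.65 (adjusted p = 0.146).

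In the Tgfbr1/2 pair, Cyr61 had 718 and 769 CPM in DKO libraries, against 342 and 662 CPM in Tcf21-Cre control libraries. The DKO libraries lay close together and the controls far apart. The log2 fold change was 0.63 ± 0.33 (interval -0.13 to 1.40, edgeR adjusted p = 0.336). It was 0.21 without Tcf21-Cre control HK6 and 1.27 without HK7, so 1 control library decided its size. The difference between the Cyr61 effects was 0.30 ± 0.46 (interval -0.71 to 1.32, edgeR adjusted p = 0.793).

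Immediate early genes, transcription factors and feedback regulators that cells switch on within minutes of a stimulus such as tissue dissociation, are set beside Cyr61 here because their levels moved with it in part. Their summed level (22 genes) was 8954 and 8447 CPM in Smad2/3 DKO and 7589 and 6455 CPM in Postn-Cre control libraries. It was 20685 and 18030 CPM in Tgfbr1/2 DKO libraries, against 15172 and 22471 CPM in Tcf21-Cre control libraries. The control library with the lower Cyr61 value, HK6, also had the lower sum, but HK7 had the highest sum of the 4 with a Cyr61 value below both DKO libraries. In the Smad2/3 comparison Egr1 rose by 0.71 on the log2 scale (edgeR adjusted p = 0.0385; 1357 and 1437 CPM in DKO, 868 and 770 CPM in control) and Klf6 fell by 0.79 (adjusted p = 0.0184), while the other 20 did not pass. Over all 15760 genes tested, 1.29% passed. The list's median was 0.51, beside 0.01 over all genes, and 13 of the 22 had an unadjusted p below 0.05 in edgeR, beside 13.6% of all genes. In the Tgfbr1/2 comparison none of the 22 passed in edgeR, beside 3.96% of all genes. None had an unadjusted p below 0.05, beside 20% of all genes, and the median was 0.16 beside -0.01 over all genes. The part of these genes in the Cyr61 values was not tested.

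Nov encodes CCN3, a member with growth-restraining actions in several cell types. The gene lies at chr15:54745702-54754039 on the plus strand (ENSMUSG00000037362). It had 11.7 and 11.9 CPM in Smad2/3 DKO libraries, against 16.2 and 9.31 CPM in Postn-Cre control libraries. The DKO values lay inside the control range, and the log2 fold change was -0.17 ± 0.38 (interval -1.02 to 0.67, edgeR adjusted p = 0.906). It had 37.5 and 32.2 CPM in Tgfbr1/2 DKO libraries, against 23.5 and 11.7 CPM in Tcf21-Cre control libraries. Both DKO libraries were above both controls. The log2 fold change was 1.07 ± 0.29 (interval 0.43 to 1.72), with an unadjusted p of 0.0042 and an adjusted p of 0.0754 in edgeR. DESeq2 gave an adjusted p of 0.0168, against 0.176 in the edgeR fit of all 8 libraries. With 1 library left out the edgeR value lay between 0.70 (without Tcf21-Cre control HK7, adjusted p = 0.149) and 1.60 (without HK6, adjusted p = 0.0113), and without either DKO library it did not pass (adjusted p up to 0.19). The difference between the Nov effects, -1.26 ± 0.49, did not pass in edgeR (interval -2.35 to -0.17, adjusted p = 0.22).

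Wisp1 encodes CCN4, a Wnt-inducible member that promotes fibroblast proliferation. It lies at chr15:66891320-66923201 on the plus strand (ENSMUSG00000005124), on the same chromosome as Nov. It had 40.0 and 33.5 CPM in Smad2/3 DKO libraries, against 46.4 and 55.0 CPM in Postn-Cre control libraries. Both DKO libraries were below both controls. The log2 fold change was -0.52 ± 0.23 (interval -1.03 to -0.01, unadjusted p = 0.045 and adjusted p = 0.353 in edgeR). It had 34.2 and 53.4 CPM in Tgfbr1/2 DKO libraries, against 31.6 and 52.3 CPM in Tcf21-Cre control libraries. Here each group held a lower and a higher library, and the log2 fold change was 0.15 ± 0.35 (interval -0.69 to 0.99, edgeR adjusted p = 0.865). The difference between the Wisp1 effects was -0.68 ± 0.44 (interval -1.64 to 0.29, edgeR adjusted p = 0.468).

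Wisp2, the member without the C-terminal module, was lower in Tgfbr1/2 DKO than in its control and was the member that passed the test in a knockout comparison. The gene lies at chr2:163820861-163833146 on the plus strand (ENSMUSG00000027656). It had 26.8 and 24.4 CPM in Tgfbr1/2 DKO libraries, against 58.8 and 73.3 CPM in Tcf21-Cre control libraries. The 2 ranges lay well apart. Wisp2 fell by 1.29 on the log2 scale (SE 0.21, interval -1.75 to -0.84, edgeR adjusted p = 0.00954). The adjusted p stayed between 0.00638 and 0.0459 when each of the 4 libraries was left out in turn, and was 0.0595 when all 8 libraries were fitted together (log2 fold change -1.28). Per the authors' deposited table the log2 fold change was -1.36.

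In the Smad2/3 pair, Wisp2 had 27.3 and 31.8 CPM in DKO libraries, against 21.6 and 11.4 CPM in Postn-Cre control libraries. The DKO libraries were the higher ones here. The log2 fold change was 0.78 ± 0.34 (interval 0.02 to 1.53, unadjusted p = 0.0444 and adjusted p = 0.351 in edgeR). It was 0.38 without Postn-Cre control HK4 and 1.33 without HK3. The Smad2/3 effect exceeded the Tgfbr1/2 effect by 2.06 ± 0.42 on the log2 scale (interval 1.13 to 2.98, edgeR adjusted p = 0.036). Leaving out each library in turn gave 1.65 to 2.62, with an adjusted p below 0.05 in 2 of the 8 fits (without Postn-Cre control HK3 and without Tcf21-Cre control HK6) and up to 0.128 in the others. The group means were 29.5 ± 3.15 CPM in Smad2/3 DKO and 25.6 ± 1.69 CPM in Tgfbr1/2 DKO (SD, n = 2 each), which were not compared by a test, while the controls stood at 16.5 ± 7.17 CPM (Postn-Cre) and 66.1 ± 10.2 CPM (Tcf21-Cre).

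**Figure D3:**
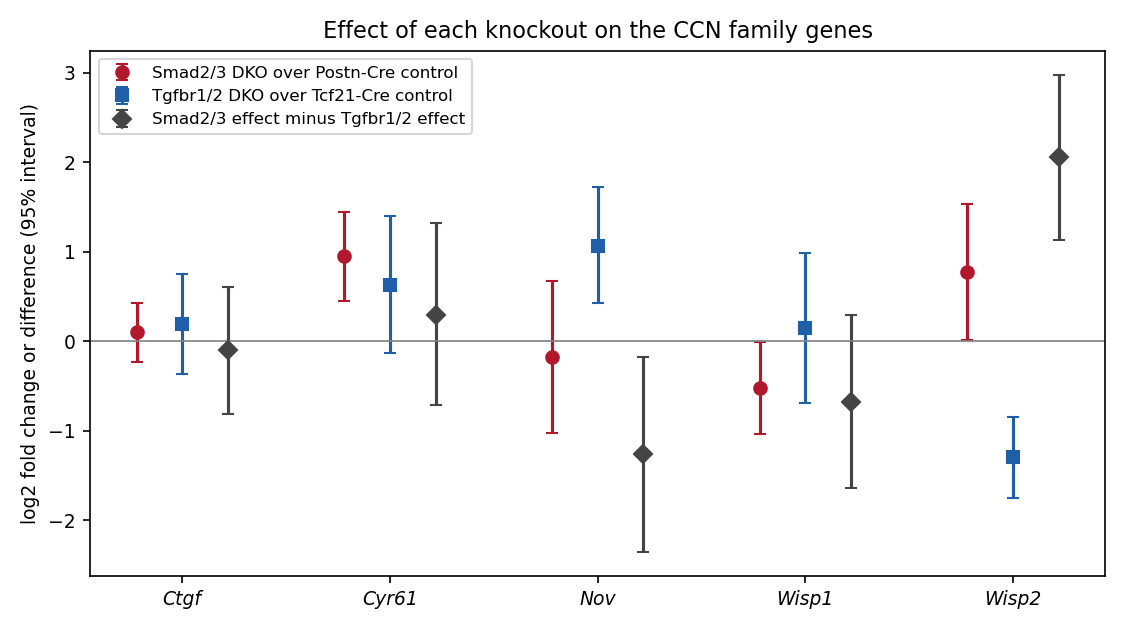
Log2 fold change of each CCN gene in Smad2/3 DKO over Postn-Cre control (circles) and in Tgfbr1/2 DKO over Tcf21-Cre control (squares), and the difference between these effects (diamonds), each with its 95% interval from edgeR. All 3 intervals of Ctgf take in 0 and all 3 of Wisp2 exclude it, as do those of Cyr61 and Wisp1 in Smad2/3 DKO and of Nov in Tgfbr1/2 DKO and for the difference; after adjustment over all genes only the Tgfbr1/2 effect (-1.29) and the difference (2.06) of Wisp2 passed.

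Across the family, 0 of 5 members passed the edgeR test in Smad2/3 DKO, where 1.29% of the 15760 genes tested did. DESeq2 called 1 (Cyr61), beside 769 of the 15760 genes. In edgeR 3 members (Cyr61, Wisp1 and Wisp2) had an unadjusted p below 0.05, as did 13.6% of all genes. In Tgfbr1/2 DKO 1 of 5 passed (Wisp2, lower), against 3.96% of 16658 genes in either direction and 1.31% in the lower one. DESeq2 called 2 (Nov and Wisp2), beside 1134 of the 16658 genes. An unadjusted p below 0.05 in edgeR was reached by 2 members (Nov and Wisp2), as by 20% of all genes. In each comparison 3 of the 5 members had groups whose ranges did not overlap, beside 44.4% of all genes for Smad2/3 and 51.2% for Tgfbr1/2. For the difference between the effects 1 of 5 passed (Wisp2, higher for Smad2/3), against 1.83% of 17770 genes in either direction and 0.664% in the higher one. The median log2 fold change of the members was 0.10 in Smad2/3 DKO and 0.19 in Tgfbr1/2 DKO. The members' levels did not run together over the 8 libraries: Pearson's r of log2(CPM + 0.5) lay between -0.56 (Ctgf with Nov) and 0.57 (Cyr61 with Nov), as a description of libraries that share run and driver.

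Cells of other types, which the gate could let through, were traced by marker lists. In the Tgfbr1/2 pair, where Wisp2 fell and Nov did not pass, the summed epicardial and mesothelial markers (8 genes) stood at 428 and 444 CPM in DKO libraries, against 84.0 and 46.4 CPM in Tcf21-Cre control libraries. Most of that was Aldh1a2, the retinoic acid synthesis enzyme (log2 fold change 3.73, edgeR adjusted p = 0.0296). It had 387 and 420 CPM in DKO and 49.3 and 16.5 CPM in control. The other 4 members tested did not pass and went both ways. Wt1 (-0.86) and Tbx18 (-0.03) were not higher in DKO on the log2 scale, while Msln (3.14) and Upk3b (2.09) were, at no more than 3.59 CPM. Muc16 was at 0 counts in 7 of the 8 libraries. The summed myeloid markers (9 genes with values) were at 193 and 210 CPM in DKO libraries and 56.5 and 81.0 CPM in control libraries. In edgeR 3 of them (Itgam, Cd74 and Csf1r) rose while 6 did not pass. Over all genes 3.96% passed in this comparison, in either direction. Endothelial, cardiomyocyte and pericyte or smooth muscle sums stood at 542 to 565, 171 to 247 and 1055 to 1094 CPM in DKO libraries, against 424 to 468, 182 to 269 and 733 to 1148 CPM in control libraries. Of the 12 endothelial markers Eng rose (0.78, edgeR adjusted p = 0.0423) and 11 did not pass, with a median of 0.58. The fibroblast marker sum was 29292 and 29314 CPM in DKO libraries, against 32337 and 41550 CPM in control libraries. None of its 9 genes passed in edgeR, and their median was -0.22. The part of these markers in the Nov and Wisp2 values was not tested.

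In the Smad2/3 pair, the fibroblast marker sum was 16024 and 15773 CPM in DKO libraries, against 23993 and 21050 CPM in Postn-Cre control libraries. Endothelial marker sums were 264 and 163 CPM in DKO and 544 and 270 CPM in control libraries, and cardiomyocyte sums were 132 and 131 CPM against 224 and 189 CPM. Of the 9 fibroblast markers Col1a1, Col1a2 and Col3a1 fell, beside 1.29% of all genes that passed in edgeR. The other 6 did not pass and went both ways on the log2 scale. They were Lum (-0.65), Ddr2 (-0.54), Dcn (0.03), Pdgfra (0.04), Tcf21 (0.37) and Postn (0.5). The median of the 9 was -0.54. Pericyte and smooth muscle sums were 1091 and 831 CPM in DKO and 1598 and 888 CPM in control libraries. Myeloid sums were 33.3 and 31.9 CPM in DKO and 35.1 and 33.8 CPM in control libraries, and epicardial and mesothelial sums 42.1 and 36.5 CPM against 70.2 and 60.9 CPM. In 5 of these 6 lists both DKO libraries were below both controls. Among single genes, 44.4% had ranges that did not overlap, in either direction. The pericyte and smooth muscle list was the exception, although its member Kcnj8 fell (-3.17, edgeR adjusted p = 0.0177). At the nearest, the myeloid sums were 33.3 against 33.8 CPM and the endothelial sums 264 against 270 CPM. The myeloid marker Itgam was higher in DKO (log2 fold change 1.33), beside a median of -0.35 over the 5 tested. Ptprc, the pan-leukocyte marker, was at 0 counts in both DKO libraries, and C1qa in all 4 libraries of the pair. The part of these markers in the Cyr61, Wisp1 and Wisp2 values was not tested.

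The genes that read out the pathways upstream of the family were followed as lists. Of 20 other YAP/TAZ target genes, 1 rose in Smad2/3 DKO (Igfbp3, a binding protein of insulin-like growth factors, with 129 and 112 CPM in DKO and 44.1 and 31.1 CPM in control; log2 fold change 1.62, edgeR adjusted p = 0.00538) and 19 did not pass. Their median was 0.08, beside 0.01 over all genes, of which 1.29% passed after adjustment. An unadjusted p below 0.05 in edgeR was reached by 8 of the 20, beside 13.6% of all genes, and these went both ways. Igfbp3, Nuak2 (1.53), Ankrd1 (1.5) and Arhgef17 (0.81) were higher in DKO on the log2 scale. Myof (-0.69), Asap1 (-0.68), Lats2 (-0.62) and Gadd45a (-0.54) were lower. In Tgfbr1/2 DKO none of the 20 passed in edgeR, 3 had an unadjusted p below 0.05, beside 20% of all genes, and the median was -0.04. Of 19 Hippo pathway components, the kinases, adaptors and TEAD factors that control YAP and TAZ, none passed in edgeR in either knockout. An unadjusted p below 0.05 was reached by 5 in Smad2/3 DKO, beside 13.6% of all genes, and by 0 in Tgfbr1/2 DKO, beside 20%. The kinase Lats2 came nearest, with 159 and 160 CPM in Smad2/3 DKO and 234 and 237 CPM in Postn-Cre control libraries (log2 fold change -0.62, adjusted p = 0.0828).

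Among 14 TGF-beta target genes other than Ctgf, 2 fell in Smad2/3 DKO and none rose, beside 1.29% of all genes that passed. An unadjusted p below 0.05 in edgeR was reached by 7 of the 14, beside 13.6% of all genes, and these went both ways. Smad7 (1.05), Skil (0.52), Pmepa1 (0.49) and Postn (0.50) were higher in DKO on the log2 scale, and Col1a1, Fn1 and Tagln (-1.1) were lower. Col1a1, the main fibrillar collagen chain, had 564 and 422 CPM in DKO and 1574 and 1480 CPM in control libraries (log2 fold change -1.69, edgeR adjusted p = 0.0011). Fn1, the fibronectin gene, had 1435 and 1291 CPM in DKO and 2716 and 2851 CPM in control libraries (log2 fold change -1.09, adjusted p = 0.0037). So in the libraries in which Col1a1 and Fn1 were lower, the Ctgf values lay within and just above the control range. In Tgfbr1/2 DKO 1 of the 14 rose and 1 fell, beside 3.96% of all genes that passed, and 7 had an unadjusted p below 0.05 in edgeR, beside 20%. Acta2, the smooth muscle actin of myofibroblasts, was higher (130 and 147 CPM in DKO, 71.6 and 66.5 CPM in control; adjusted p = 0.014), and Tgfbi, a secreted TGF-beta-induced matrix protein, was lower (194 and 190 CPM in DKO, 430 and 424 CPM in control; adjusted p = 0.0163). The median of the list was -0.18 in Smad2/3 DKO and -0.21 in Tgfbr1/2 DKO.

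Of 12 Wnt readout genes, 9 were high enough to be tested in the Smad2/3 comparison and 10 in the Tgfbr1/2 comparison. None passed in edgeR in either, and 1 and 2 had an unadjusted p below 0.05, beside 13.6% and 20% of all genes. The feedback gene Axin2 was low throughout, at 3.21 and 0.466 CPM in Smad2/3 DKO, 0.423 and 0.87 CPM in Postn-Cre control, 6.01 and 2.64 CPM in Tgfbr1/2 DKO and 9.87 and 6.19 CPM in Tcf21-Cre control libraries. Apcdd1, a membrane inhibitor of Wnt signalling, had 23.5 and 16.1 CPM in Tgfbr1/2 DKO and 35.5 and 27.8 CPM in Tcf21-Cre control libraries (edgeR adjusted p = 0.173).

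Of 16 receptors and coreceptors of CCN proteins, 5 rose in Tgfbr1/2 DKO, none fell and 11 did not pass. Over all genes 3.96% passed in that comparison, in either direction. Itgb3, a subunit of the vitronectin receptor, had 87.4 and 79.3 CPM in DKO and 41.1 and 31.5 CPM in control libraries (log2 fold change 1.28, edgeR adjusted p = 0.00696). Itga5, a subunit of the fibronectin receptor, had 476 and 611 CPM in DKO and 232 and 165 CPM in control libraries (log2 fold change 1.55, adjusted p = 0.00877). Notch1, a receptor reported to bind Nov, had 116 and 110 CPM in DKO and 77 and 61.5 CPM in control libraries (log2 fold change 0.79, adjusted p = 0.039). The other 2, Itgb2 (2.65, adjusted p = 0.0142) and Itgam (1.72, adjusted p = 0.023), form an integrin of myeloid cells. Itgam is itself 1 of the 3 myeloid markers, of 9 tested, that rose. The median of the 9 was 1.61, and 6 had an unadjusted p below 0.05 in edgeR, beside 20% of all genes. Those that did not pass were C1qb (2.58, adjusted p = 0.233), Lyz2 (2.31, 0.103), C1qa (2.13, 0.0993), Ptprc (0.89, 0.389), Fcgr1 (0.8, 0.544) and Cd68 (0.01, 0.991). In Smad2/3 DKO 1 of 15 tested receptors fell, beside 1.29% of all genes that passed in either direction. It was the heparan sulfate proteoglycan Hspg2, with 510 and 336 CPM in DKO and 977 and 977 CPM in control libraries (log2 fold change -1.27, edgeR adjusted p = 0.00765). The difference between the effects passed for 4 of the 16, beside 1.83% of all genes in either direction. All 4 were lower in Smad2/3: Itgb3 (-2.42), Itga5 (-1.96), Hspg2 (-1.75) and Notch1 (-1.39).

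**Figure D4:**
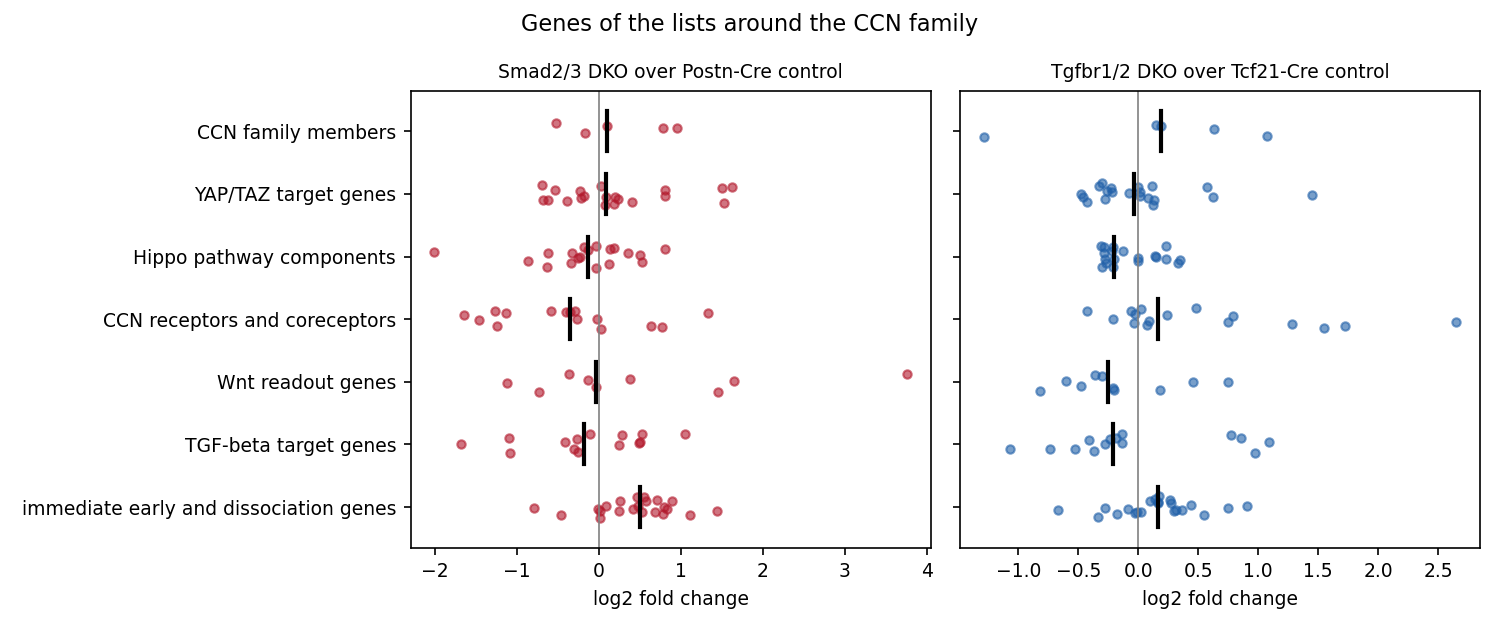
Log2 fold changes of the tested genes of 7 lists (1 dot per gene, black bars the list medians) in Smad2/3 DKO over Postn-Cre control and in Tgfbr1/2 DKO over Tcf21-Cre control; the x axes differ in scale. The immediate early genes have a median of 0.51 on the left and 0.16 on the right, and Wisp2 is the single CCN gene below -1 on the right.

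The levels in the controls show the family without a targeted deletion, in Postn-lineage and in Tcf21-lineage fibroblasts, though run and driver cannot be told apart here. Postn itself had 208 and 186 CPM in Postn-Cre control libraries against 1615 and 3076 CPM in Tcf21-Cre control libraries, and Tcf21 had 26.2 and 25.6 CPM against 163 and 111 CPM. Both driver genes were thus lower in the Postn-Cre control libraries, although cells there were gated through Postn. Ctgf was higher in Postn-Cre control libraries (1604 and 1308 CPM) than in Tcf21-Cre control libraries (974 and 1226 CPM), with a log2 fold change of 0.74 ± 0.23 (edgeR adjusted p = 0.0423). That call was lost without Postn-Cre control HK3 (0.53, adjusted p = 0.221), without Postn-Cre control HK4 (0.88, adjusted p = 0.0542) and without Tcf21-Cre control HK6 (0.53, adjusted p = 0.0911). Wisp2 was lower in Postn-Cre control libraries (21.6 and 11.4 CPM against 58.8 and 73.3 CPM), with a log2 fold change of -1.67 ± 0.34 (edgeR adjusted p = 0.00927), and its adjusted p reached at most 0.0131 with any library left out. Cyr61 did not pass (-0.86 ± 0.36, edgeR adjusted p = 0.104), but DESeq2 called it (adjusted p = 0.0375), as did edgeR without Tcf21-Cre control HK6 (-1.31, adjusted p = 0.000469). Without HK7 the Cyr61 value was -0.26 (edgeR adjusted p = 0.553) and without Postn-Cre control HK4 it was -0.58 (adjusted p = 0.358). Nov (-0.11, edgeR adjusted p = 0.859) and Wisp1 (0.60, adjusted p = 0.154) did not pass either, though Wisp1 passed without Tcf21-Cre control HK7 (1.05, adjusted p = 0.0296; 0.23 without HK6). The 2 of 5 members that passed stand beside 33.9% of the 16568 genes tested, 16.6% higher and 17.3% lower. Scaling to the library total moved the median of all genes to -0.36, against -0.07 with TMM scaling in edgeR, a shift of -0.29.

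The pathway lists are read here against the 33.9% of all genes that passed between these controls. Immediate early genes were lower in Postn-Cre control libraries for 15 of 22 and higher for 3, with a median of -2.12 beside -0.07 over all genes, and Junb had 7.73 and 7.31 CPM in Postn-Cre control libraries against 263 and 383 CPM in Tcf21-Cre control libraries. Of 19 Hippo pathway components 8 were higher and 1 was lower, among them Tead1 (373 and 413 CPM against 240 and 172 CPM; log2 fold change 1.28, edgeR adjusted p = 0.0042) and Wwtr1, which encodes TAZ (498 and 599 CPM against 295 and 341 CPM; 1.12, adjusted p = 0.00643). Of the 20 YAP/TAZ targets 4 were higher, 4 were lower and 12 did not pass, with a median of 0.07. Of 9 Wnt readout genes tested, 3 were lower (Axin2, -3.29, adjusted p = 0.00581; Apcdd1, -1.93, adjusted p = 0.0116; Nkd1, -1.95, adjusted p = 0.0392), 1 was higher (Znrf3, 1.00, adjusted p = 0.0177) and 5 did not pass. Their median was -0.12, beside -0.07 over all genes.

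Set in order over all 4 groups, no member stood in the same order as another. Ctgf averaged 1629 ± 77.3 CPM in Smad2/3 DKO, 1456 ± 209 in Postn-Cre control, 1187 ± 198 in Tgfbr1/2 DKO and 1100 ± 178 in Tcf21-Cre control libraries (SD, n = 2 each), which is its descending order, and the ranges of each neighbouring pair overlapped. Cyr61 was at 443 ± 98.5 CPM in Smad2/3 DKO, 220 ± 69.2 in Postn-Cre control, 743 ± 35.6 in Tgfbr1/2 DKO and between 342 and 662 CPM in Tcf21-Cre control libraries. Its highest group (Tgfbr1/2 DKO) and its lowest (Postn-Cre control) stood clear of the rest, and the middle pair overlapped.

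Nov averaged 11.8 ± 0.114 CPM in Smad2/3 DKO, 12.8 ± 4.87 in Postn-Cre control, 34.8 ± 3.74 in Tgfbr1/2 DKO and 17.6 ± 8.34 in Tcf21-Cre control libraries, and Tgfbr1/2 DKO alone stood clear of its neighbour. Wisp1 averaged 36.7 ± 4.55 CPM in Smad2/3 DKO, 50.7 ± 6.11 in Postn-Cre control, 43.8 ± 13.6 in Tgfbr1/2 DKO and 42.0 ± 14.6 in Tcf21-Cre control libraries, each overlapping its neighbour in the order. Wisp2 was highest in Tcf21-Cre control, followed by Smad2/3 DKO, Tgfbr1/2 DKO and Postn-Cre control. In none of these steps did the ranges overlap. At the nearest, a Smad2/3 DKO library had 27.3 CPM and a Tgfbr1/2 DKO library of the other run 26.8 CPM. Within a single knockout-control pair, the ranges of 44.4% (Smad2/3) and 51.2% (Tgfbr1/2) of all genes did not overlap. The share of genes with separate ranges over all 4 groups was not counted.

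Genes whose levels followed each member most closely over the 8 libraries were ranked by Pearson's r of log2(CPM + 0.5) among 7905 genes with a mean of at least 10 CPM. For Wisp2 these were Cbx7 (r = 0.993), a Polycomb chromobox protein, Cdk5rap2 (0.958), a centrosome protein, and Dhrs3 (0.957), a retinal reductase. Cbx7 had 12.4 and 11.5 CPM in Tgfbr1/2 DKO libraries against 33 and 39.3 CPM in Tcf21-Cre control libraries (log2 fold change -1.52, edgeR adjusted p = 0.00704), and 12.9 and 14.6 CPM in Smad2/3 DKO libraries against 8.08 and 3.09 CPM in Postn-Cre control libraries. For Nov they were Efemp1 (0.988), the fibulin-3 gene, Bok (0.983) and Cab39l (0.972). Efemp1 had 256 and 203 CPM in Tgfbr1/2 DKO libraries and 114 and 31.4 CPM in Tcf21-Cre control libraries, the same library HK6 being the higher control as for Nov. For Ctgf they were Rnf19b (0.979), Errfi1 (0.974), a feedback inhibitor of EGF receptor signalling, and Igfbp7 (0.967). For Cyr61 they were Letm1 (0.961), Xrcc5 (0.957) and the ribosomal protein gene Rpl6 (0.955), and for Wisp1 Chodl (0.838), B3galt1 (0.828) and Enpp1 (0.810), the weakest matches of the family. With 8 libraries in 2 runs, high values of r are easily reached, and they are given as a description.

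**Figure D5:**
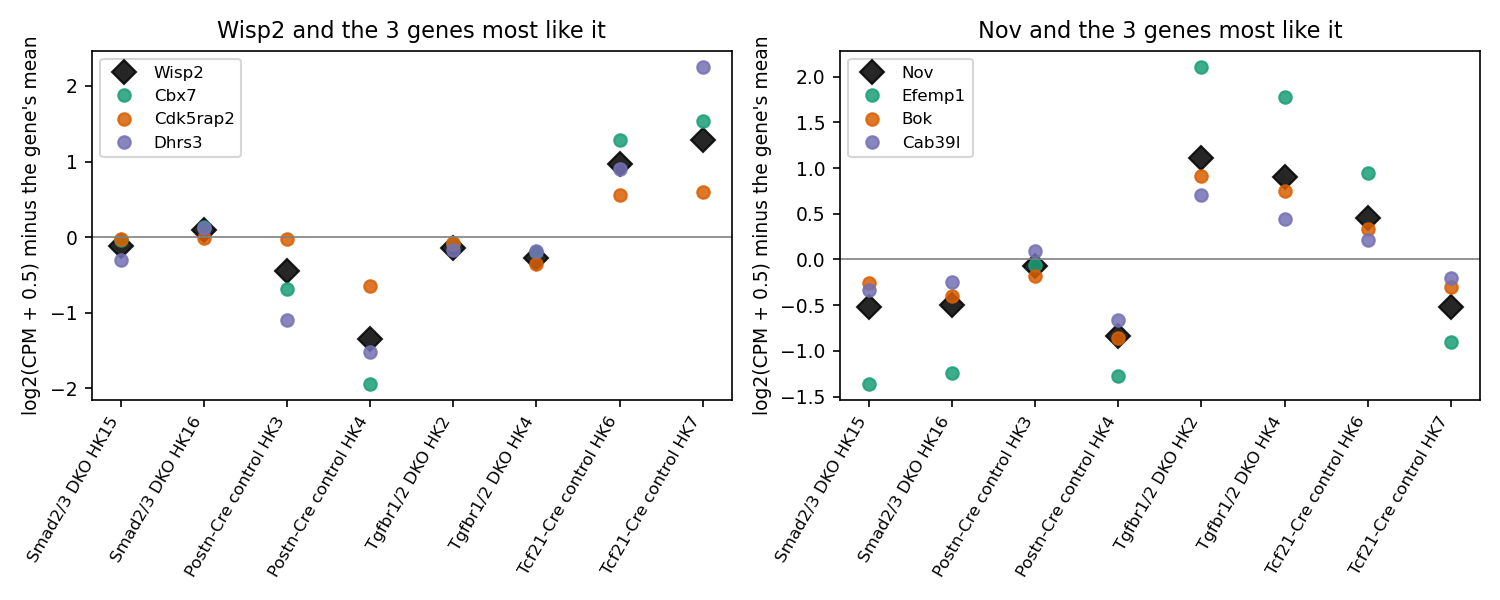
Log2(CPM + 0.5) minus each gene's mean over the 8 libraries (y axis) for Wisp2 (left) and Nov (right), black diamonds, and the 3 genes most like each (coloured dots), by library. Wisp2 and Cbx7 (r = 0.993) are both highest in the 2 Tcf21-Cre control libraries, and Nov and Efemp1 (r = 0.988) in the 2 Tgfbr1/2 DKO libraries.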

How the data were processed

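RNA of GFP-positive sorted fibroblasts was amplified (NuGEN Ovation) and tagmented (Nextera XT) for Illumina sequencing, per the labels' protocols. The authors deposited expected counts for 38087 Ensembl genes in each of 2 tables, mostly fractional (12.5% of values above 0 were whole). The submitters' processing notes name the build mm10. Aligner and counting tool are not given in the sources used. Their log2 fold changes, as deposited, carry no test. Per the file headers, the 2 tables hold raw values.

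The expected counts were rounded, and entries sharing a symbol summed (278 symbols from 3966 entries). CPM is the count over the library total, times 1000000. Exon lengths and positions are from GENCODE vM21 (GRCm38), which held 95.3% of the identifiers. Promoter sequence is from RefSeq (GRCm38.p6), whose table matched 1 of the 5 members. Fits used edgeR 4.0.16 in R 4.3.3 (TMM, filterByExpr, robust quasi-likelihood F test, two-sided, Benjamini-Hochberg adjustment over all tested genes, threshold 0.05), each comparison on its own 4 libraries and the difference between effects as an interaction over all 8. DESeq2 1.42.0 was an alternative, with DESeq2-type size factors, no low-count filter, a fit without robust estimation, unsummed entries, a fit of all 8 libraries and leaving out each library. When a library was left out, the lone library of its group was assumed to vary like the others. The scripts were tested on simulated data.

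The members, gene lists and alternatives were chosen with earlier results of these data known. Named beside the members were the targeted genes, up to 4 called genes per list (otherwise the one with the smallest p), the 3 genes most like each member and leading markers; further list genes, and Gm15270 for its overlap, were named after their values were seen. Reads were amplified and are not independent molecules, so the floor of 3 counts reflects counting error alone.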

Additional observations from a re-analysis of the deposited data

Results flagged for a closer look

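The Wisp2 effect differed between the knockouts: the Smad2/3 effect exceeded the Tgfbr1/2 effect by 2.06 on the log2 scale in the edgeR interaction test (adjusted p = 0.036). With each library left out in turn, 6 of the 8 fits no longer passed (adjusted p up to 0.128). Wisp2 had 27.3 and 31.8 CPM in Smad2/3 DKO libraries, against 21.6 and 11.4 CPM in Postn-Cre control libraries, and 26.8 and 24.4 CPM in Tgfbr1/2 DKO libraries, against 58.8 and 73.3 CPM in Tcf21-Cre control libraries. Of the effects behind it, the Tgfbr1/2 one passed in the fit of its own 4 libraries (-1.29, adjusted p = 0.00954) but not in the fit of all 8 (-1.28, adjusted p = 0.0595), and the Smad2/3 one did not (0.78, adjusted p = 0.351). Run, Cre driver and targeted genes differ together between the comparisons and cannot be told apart.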

How the results depend on the processing

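Of 215 log2 values of members under alternative settings, 182 kept their direction and side of the threshold, 10 lost and 10 gained significance, and 13 changed sign; the cause was not tested. The sign changes came from leaving out 1 library, all in values that did not pass: Ctgf ranged from -0.05 to 0.28 (Smad2/3), -0.06 to 0.44 (Tgfbr1/2) and -0.35 to 0.15 (difference), Nov from -0.53 to 0.30 (Smad2/3) and -0.61 to 0.40 (controls), Wisp1 from -0.29 to 0.63 (Tgfbr1/2) and Cyr61 from -0.32 to 0.71 (difference). Genes called in Smad2/3 DKO numbered 204, against 819 with no low-count filter, 769 with DESeq2 and 105 to 297 with a library left out. In Tgfbr1/2 DKO they numbered 659, against 1233, 1134, 299 in 1 fit of all 8 libraries and 271 to 484. For the difference they numbered 326, against 1194, 1146 and 89 to 302, and between the controls 5612, against 3177 to 6801. With no low-count filter Cyr61 also passed in Smad2/3 DKO (adjusted p = 1.08e-05) and Nov in Tgfbr1/2 DKO (0.00959). The order of the groups by mean CPM held for 3 of the 5 members when TMM factors scaled the totals: Cyr61 in Smad2/3 DKO was then 464 CPM against 461 CPM in Tcf21-Cre control, and Wisp1 was 38.4 CPM in both of its lowest groups. Without division by exon length Ctgf averaged 70.3% of the family signal over the libraries, against 64.4% with it.

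No paired analysis was possible because the HK numbers name libraries and the groups compared share no number. With 2 libraries a group, the intervals are wide: those of Ctgf still take in a rise of 0.43 (Smad2/3) or 0.75 (Tgfbr1/2) on the log2 scale.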
